A study of Mus musculus with 8 samples.

Results

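A set of 10 choroid plexus genes was followed in whole brains of newborn mice: *Ttr*, *Enpp2*, *Kl*, *Folr1*, *Prlr*, *Aqp1*, *Slc4a5*, *Kcnj13*, *Clic6* and *Otx2*. They were chosen by symbol, and all 10 were found among the 49585 genes of the count table for the C57BL/6J genome and among the 23113 genes tested. The brains came from 8 female F1 pups of a C57BL/6J mother and a CAST/EiJ father, taken at postnatal day 1. Mothers of 4 pups drank water with 0 ppm cadmium and mothers of the other 4 drank water with 50 ppm cadmium, given as CdCl2 before and throughout pregnancy, and each pup came from a different litter. Exposure was thus maternal, every pup carried the same hybrid genotype, and both doses were collected at the same age. RNA was taken from a portion of each frozen, pulverized whole brain, so the choroid plexus was a small and unmeasured share of every sample.

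The choroid plexus is a sheet of epithelium over leaky capillaries that hangs in each brain ventricle. Its cells are joined by tight junctions, secrete cerebrospinal fluid and pass vitamins, hormones and ions from blood into that fluid. Cadmium is known to accumulate in this epithelium, and the genes below mark its secreted proteins, its receptors, its water and ion transport, and its transcription factor *Otx2*.

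No member differed between the doses beyond the spread among brains. Within a dose, however, most members differed widely from brain to brain, and they did so together: *Ttr*, *Enpp2*, *Folr1*, *Aqp1*, *Slc4a5*, *Kcnj13*, *Clic6* and *Otx2* were all highest in 0 ppm replicate 2. *Kl* and *Prlr* did not follow that order. In whole-brain RNA, fewer cells of a type and less RNA per cell cannot be told apart.

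Gene-level totals lay between 22916434 and 30708087 reads in the 8 brains, and TMM factors lay between 0.986 and 1.02. Values below are counts scaled to a common library size (CPM) after TMM normalization of library sizes, unless a log2 scale is named. Members differed greatly in depth, from 11 to 30 reads per library for *Prlr* to 9265 to 30311 for *Ttr*, so that a single library of *Prlr* carried much more counting error.

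Start-site sequences are shown for the member that varied most among brains of a dose (*Slc4a5*), for the steadiest member (*Kl*), and for the 1 window of *Otx2* that held a copy of its own family's core motif. RefSeq (GRCm38.p6) gave windows of 300 bases, with 250 bases before the start and 50 after it, for 6 of the 10 members and 11 starts in all. The *Slc4a5* window is chr6:83237125-83237424 on the plus strand, the *Kl* window chr5:150952357-150952656 on the plus strand, and the *Otx2* window chr14:48665060-48665359 on the minus strand. The *Kl* start is that of the annotated gene (chr5:150952607-150993817), whereas the other starts lie inside *Slc4a5* (chr6:83219828-83304945) and *Otx2* (chr14:48657677-48673819). Capitals mark TAATCC, the core bound by Otx2 and related homeodomain proteins, or its reverse complement GGATTA; both strands were searched.
Slc4a5: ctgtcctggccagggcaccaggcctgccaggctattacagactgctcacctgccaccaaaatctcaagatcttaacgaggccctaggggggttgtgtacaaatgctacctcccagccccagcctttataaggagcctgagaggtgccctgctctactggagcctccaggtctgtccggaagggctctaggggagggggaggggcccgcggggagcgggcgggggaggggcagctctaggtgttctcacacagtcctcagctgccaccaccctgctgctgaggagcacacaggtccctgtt
Kl: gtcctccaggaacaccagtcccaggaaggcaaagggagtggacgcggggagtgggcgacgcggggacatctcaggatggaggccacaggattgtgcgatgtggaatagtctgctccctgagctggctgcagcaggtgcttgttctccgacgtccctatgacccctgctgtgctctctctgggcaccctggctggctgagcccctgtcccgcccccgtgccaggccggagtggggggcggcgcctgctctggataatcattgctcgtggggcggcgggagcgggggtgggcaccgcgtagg
Otx2: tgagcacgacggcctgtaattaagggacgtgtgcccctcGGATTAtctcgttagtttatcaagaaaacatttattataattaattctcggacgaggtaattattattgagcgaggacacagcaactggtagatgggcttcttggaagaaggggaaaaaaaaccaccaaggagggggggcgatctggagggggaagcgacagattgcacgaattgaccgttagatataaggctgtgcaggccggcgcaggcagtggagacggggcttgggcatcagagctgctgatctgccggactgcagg
The copy in *Otx2* began at -211 from the start, on the strand opposite to the gene. The motif was present in 1 of 11 member windows and in 2320 of all 32851 windows (7.06%). No copy lay in the windows of *Slc4a5*, *Kl*, *Aqp1*, *Kcnj13* or *Prlr*, which says only that these letters were not there. The *Kl* window held 19 CG dinucleotides, more than 71.9% of all windows, the *Slc4a5* window held 6, and the median over all windows was 7.

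Among the secreted proteins, *Ttr* encodes transthyretin, which carries thyroxine and retinol-binding protein in cerebrospinal fluid. It lies on chromosome 18. In replicates 1 to 4 it measured 531, 1128, 418 and 461 CPM at 0 ppm against 325, 564, 515 and 747 CPM at 50 ppm. The highest and the lowest brain thus belonged to different doses, and the remaining values overlapped. The means were 634 ± 332 CPM at 0 ppm against 538 ± 173 CPM at 50 ppm (SD, n = 4 each). With edgeR's quasi-likelihood test, the log2 fold change was -0.24 (SE 0.25), and its 95% confidence interval of -0.77 to 0.29 corresponded to 0.588 to 1.22 times the control level. *Ttr* was also the most abundant member per length of exon, at 494 ± 211 CPM per kb over the 8 brains (SD), and it supplied 71.4% to 81.1% of the summed CPM of the members.

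*Enpp2* encodes autotaxin, the secreted enzyme that makes lysophosphatidic acid. It measured 82.4, 139, 76.8 and 79.5 CPM at 0 ppm against 86.5, 91.9, 86.0 and 122 CPM at 50 ppm. Within each dose 3 brains lay close together and 1 stood above them, replicate 2 at 0 ppm and replicate 4 at 50 ppm. Over all 8 brains the log2 fold change was 0.03 (SE 0.15; 95% interval -0.29 to 0.36). Without 0 ppm replicate 2 it was 0.28 (SE 0.11), with an unadjusted p of 0.0177 in edgeR's fit and a Benjamini-Hochberg adjusted p of 1.0, and the exposed brains then all lay above the controls. Since 0 ppm replicate 2 was the highest control, leaving it out could only raise the difference. In that fit 813 of 22762 genes had an unadjusted p under 0.05. How many of all genes had groups that did not overlap there was not counted. A gene of the opposite strand covers 5.97% of the exons.

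*Kl* encodes klotho, a co-receptor for the hormone FGF23 that is also shed from the cell surface. It was the steadiest member, with 3.93, 3.76, 3.89 and 3.60 CPM at 0 ppm against 4.07, 3.65, 3.82 and 4.41 CPM at 50 ppm. The 0 ppm replicate 2 brain, highest for *Ttr*, was in the middle of the range here. The log2 fold change was 0.07 (SE 0.15), and the interval of 0.843 to 1.31 times the control level was among the narrowest of the 10. Around the dose means, log2 CPM of *Kl* had an SD of 0.09, which was below the 0.14 that counting error alone would give at its mean of reads.

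Of the receptors, *Folr1* encodes folate receptor alpha, which moves folate into cerebrospinal fluid. Its values were 5.39, 12.9, 5.62 and 4.41 CPM at 0 ppm against 3.79, 5.72, 6.82 and 8.03 CPM at 50 ppm. Replicate 2 again stood above the other controls, and the exposed brains spread from just below the lowest control to 8.03 CPM, so the groups overlapped. Exposed over control, the log2 fold change was -0.22 (SE 0.28; 95% interval -0.80 to 0.36).

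*Prlr* encodes the prolactin receptor. It measured 0.376, 0.521, 0.914 and 0.620 CPM at 0 ppm against 0.807, 1.05, 0.928 and 0.971 CPM at 50 ppm, from 11, 14, 28 and 16 reads and 23, 30, 26 and 22 reads. The exposed brains were higher on average, but the highest control lay above the lowest exposed brain. This was the largest log2 fold change of the 10 members, 0.62 (SE 0.30; 95% interval -0.02 to 1.25), with an unadjusted p of 0.056 and an adjusted p of 0.999 (edgeR, Benjamini-Hochberg). An exact two-sided permutation test of mean log2 CPM gave p = 0.0571, where the smallest possible value was 0.0286. Leaving out 0 ppm replicate 3, the highest control, gave a log2 fold change of 0.90 (SE 0.32). The same edgeR test then gave an unadjusted p of 0.0121 and an adjusted p of 0.748. Leaving out the highest control could only raise the difference. In that fit 1155 of 22727 genes had an unadjusted p under 0.05. The exposed brains then all lay above the controls, a separation that was not counted over all genes. The within-dose SD of 0.35 on the log2 scale was close to the 0.313 expected from counting error alone.

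Among genes of water and ion transport, *Aqp1*, the water channel of the ventricular face of the epithelium, measured 12.5, 32.7, 11.2 and 15.1 CPM at 0 ppm. At 50 ppm it measured 9.37, 14.2, 15.9 and 19.5 CPM. The control mean of 17.9 ± 9.99 CPM (SD, n = 4) was therefore raised by a single brain, 2.52 times the mean of the other 3 controls. Its log2 fold change was -0.28 (SE 0.27; 95% interval -0.84 to 0.28).

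*Slc4a5* encodes a sodium bicarbonate cotransporter. Its CPM were 3.93, 16.5, 3.69 and 4.49 at 0 ppm and 2.84, 6.25, 5.71 and 8.29 at 50 ppm. Replicate 2 was 4.09 times the mean of the other 3 controls, the widest such step among the members, and 3 of 4 exposed brains lay above those 3 controls. The log2 fold change of -0.31 (SE 0.39) had the widest interval of the 10, from 0.455 to 1.43 times the control level, and turned to 0.51 without 0 ppm replicate 2.

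*Kcnj13* encodes the inwardly rectifying potassium channel Kir7.1. It measured 3.11, 5.62, 1.83 and 2.56 CPM at 0 ppm against 2.70, 3.12, 3.60 and 3.93 CPM at 50 ppm, and the exposed range lay inside the control range. On the log2 scale the fold change was 0.03 (SE 0.26). Its exons (chr1:87386363-87394729 on the minus strand) share 49.06% of their length with *Gigyf2* on the opposite strand, and since the strand setting of the count is not given in the sources used here, its reads cannot be told apart from those of *Gigyf2* with certainty.

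*Clic6* encodes a chloride intracellular channel protein. It measured 15.9, 28.3, 15.3 and 14.7 CPM at 0 ppm against 10, 16.5, 16.1 and 22.8 CPM at 50 ppm. At 0 ppm replicate 2 was again highest and the other 3 controls lay close together, with exposed replicate 1 below them and the other 3 exposed brains above them. Its log2 fold change was -0.18 (SE 0.21; 95% interval -0.63 to 0.27).

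*Otx2*, the homeodomain transcription factor needed to form and maintain the choroid plexus, is also expressed in the midbrain roof, the eye and the pineal gland. It measured 15.6, 23.9, 15.0 and 18.0 CPM at 0 ppm against 9.93, 17.3, 18.2 and 17.2 CPM at 50 ppm. Here the exposed group had 3 close brains and 1 low brain, replicate 1. The log2 fold change was -0.21 (SE 0.17; 95% interval -0.57 to 0.15). A gene of the opposite strand covers 3.65% of its exons, and a gene of the same strand covers 3.98%.

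**Figure D1:**
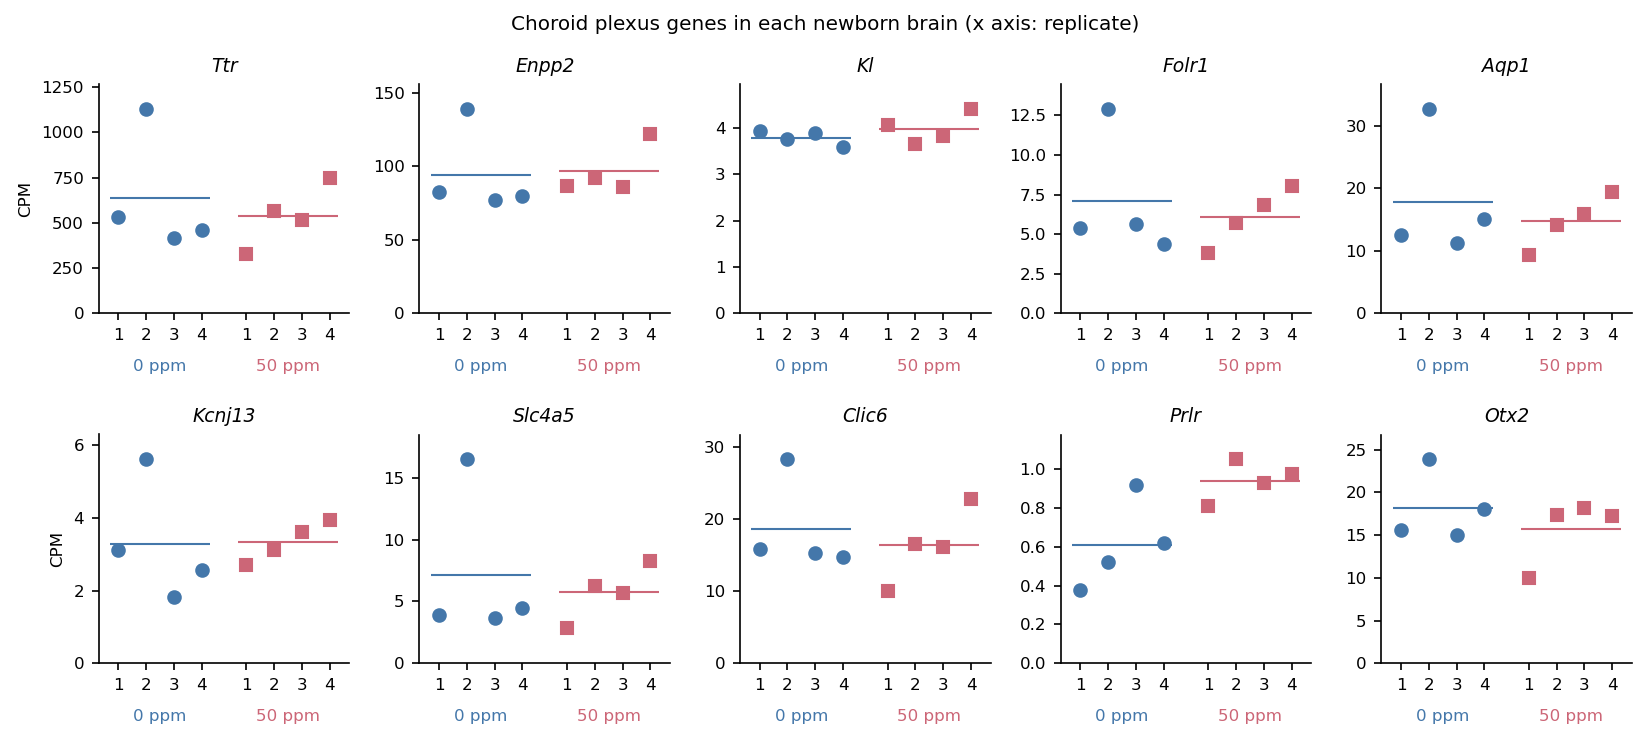
CPM (linear axis from 0) of each member in each of the 8 brains, with circles for 0 ppm, squares for 50 ppm, replicate numbers on the x axis and lines at the mean of each dose. In 8 of the 10 panels 0 ppm replicate 2 is the highest point, and in *Kl* the values stay between 3.60 and 4.41 CPM.

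The comparison of doses asked whether maternal cadmium changed these genes in the newborn brain. By edgeR's quasi-likelihood test, with p-values adjusted by Benjamini-Hochberg over all genes tested, 0 of 10 members had an adjusted p under 0.05, with an adjusted p of 0.999 for each, against 4 of 23113 genes (0.0173%). At an unadjusted p under 0.05 there were 0 of 10 members and 866 of all genes (3.75%). DESeq2 also called 0 of 10 members at its adjusted threshold. The groups did not overlap in 0 of 10 members and in 484 of all genes (2.09%). The fold changes were positive for 4 members and negative for 6, with a median of -0.20 on the log2 scale beside 0.0 over all genes tested. Exact permutation tests of single members gave p-values from 0.0571 (*Prlr*) to 0.943 (*Slc4a5*).

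The fold changes of 7 members changed sign when a single library was left out. Without 0 ppm replicate 2, the log2 fold change became 0.19 for *Ttr*, 0.24 for *Folr1*, 0.19 for *Aqp1*, 0.51 for *Slc4a5* and 0.09 for *Clic6*, and the median over the members became 0.21. *Enpp2* (-0.10 to 0.28) and *Kcnj13* (-0.18 to 0.42), both at 0.03 with all libraries, also changed sign when other single libraries were left out. *Otx2* stayed negative and *Prlr* and *Kl* stayed positive whichever library was left out. The adjusted p remained above 0.05 for every member in each of these fits.

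**Figure D2:**
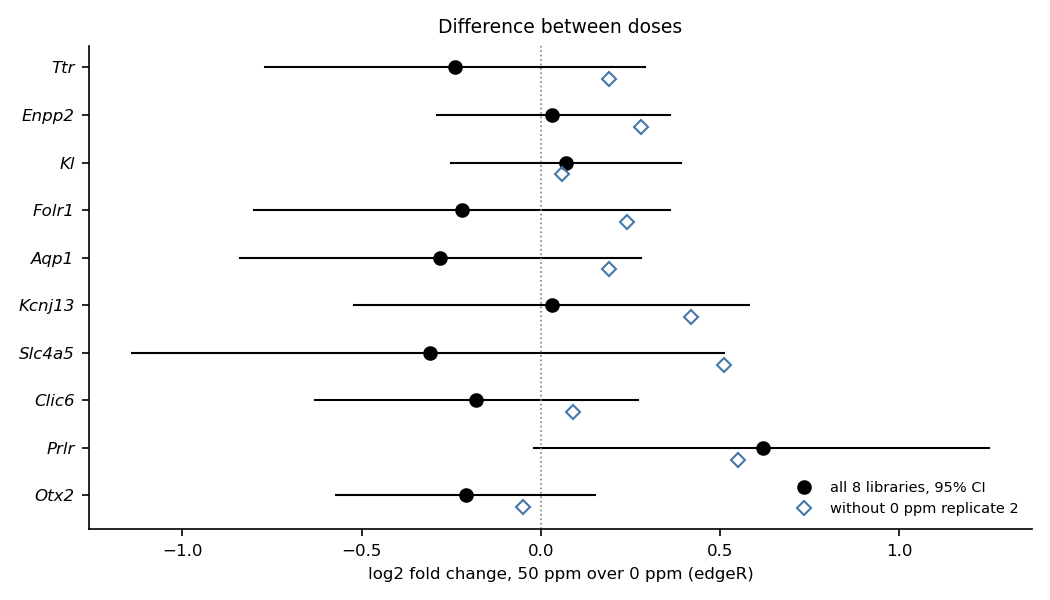
Log2 fold change of each member at 50 ppm over 0 ppm from edgeR's fit to all 8 libraries (filled circles, with 95% confidence intervals) and to 7 libraries without 0 ppm replicate 2 (open diamonds). Every interval spans 0, and 5 of the 10 estimates change sign when that brain is left out.

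Variation within a dose was described for the 12423 genes with a mean of at least 100 counts, which included 8 members (*Kcnj13* and *Prlr* fell below). Among the controls, the highest brain was at least 2 times the lowest in 4 of these 8 members (*Ttr*, *Folr1*, *Aqp1* and *Slc4a5*) and in 244 of the 12423 genes (1.96%). Among exposed brains this was so in 5 of the 8 members, with *Clic6* added, and in 143 genes (1.15%). *Slc4a5* had the widest range in both doses, 4.48 times at 0 ppm and 2.92 times at 50 ppm. The SD of log2 CPM around the dose means was 0.85 for *Slc4a5*, above 99.9% of these genes, and 0.58 for *Ttr*, *Folr1* and *Aqp1*, above 99.6%. It was 0.47 for *Clic6*, 0.36 for *Otx2* and 0.33 for *Enpp2*, beside a median of 0.13 over the 12423 genes. *Kl*, at 0.09, was above only 23.4% of them.

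The same brains were at the ends of the range in most members. The 0 ppm replicate 2 brain was the highest of the 8 in 7 of the 8 members with a mean of at least 100 counts, and in 2178 of the 12423 genes (17.5%). The 50 ppm replicate 1 brain was the lowest in 6 of the 8 members and in 1570 of the genes (12.6%). Apart from *Kl* and *Prlr*, the median deviation of the members from the dose mean was 0.92 on the log2 scale in 0 ppm replicate 2 and 0.45 in 50 ppm replicate 4. It was -0.62 in 50 ppm replicate 1, and between -0.37 and 0.10 in the other 5 brains. With *Kl* and *Prlr* included, the median was 0.78 in 0 ppm replicate 2, 0.40 in 50 ppm replicate 4 and -0.61 in 50 ppm replicate 1. At 0 ppm 1 brain thus stood above 3 that lay closer together, and at 50 ppm 1 brain stood above and 1 below the other 2.

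**Figure D3:**
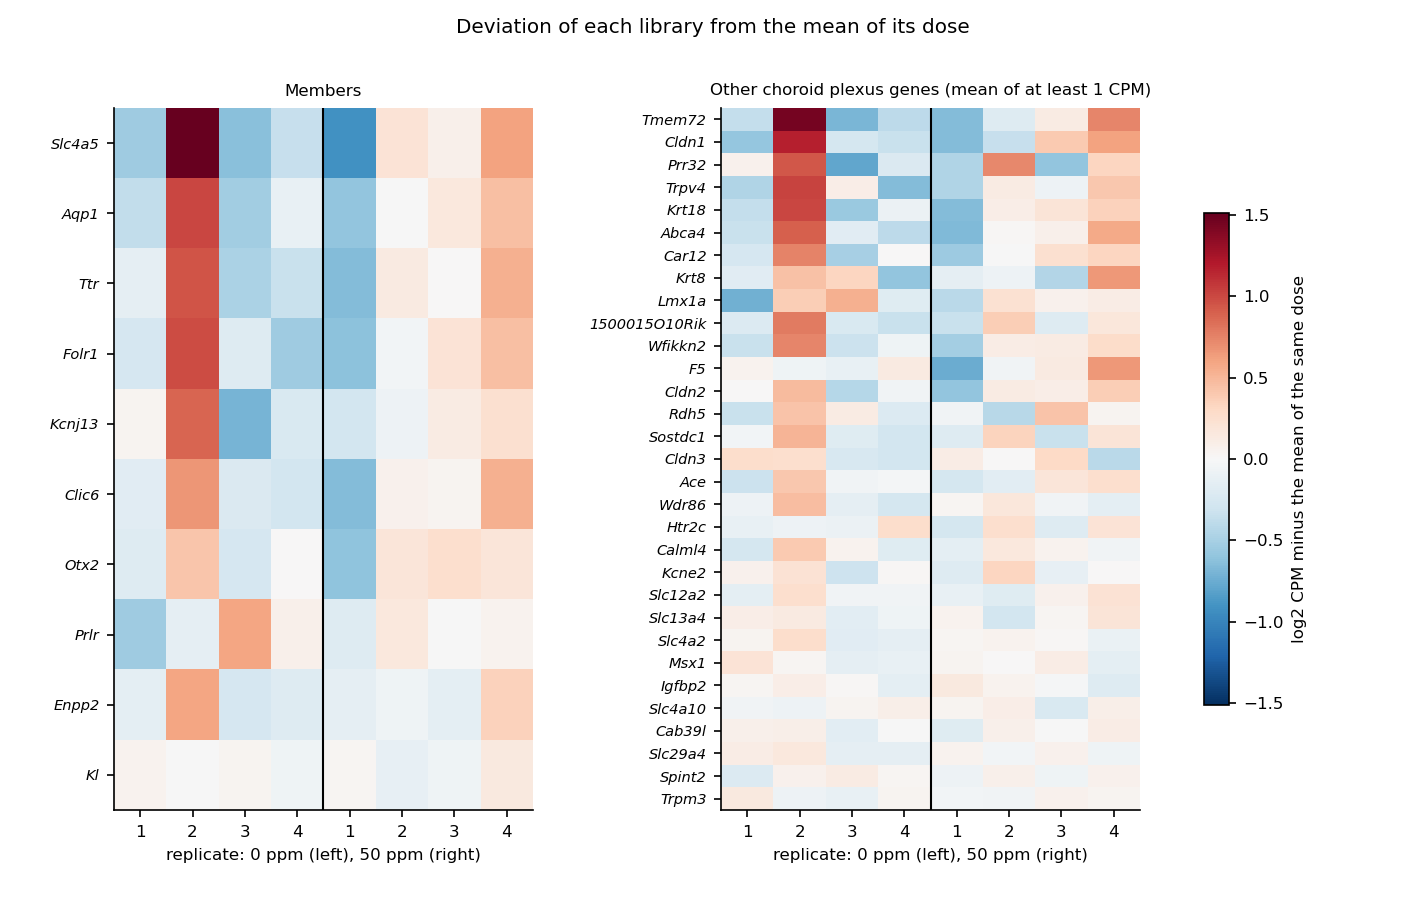
Deviation of log2 CPM from the mean of the same dose (colour, red above and blue below) in each brain, for the 10 members on the left and for 31 other choroid plexus genes with a mean of at least 1 CPM on the right, sorted by the size of the deviations. The column of 0 ppm replicate 2 is red and that of 50 ppm replicate 1 is blue in most upper rows, while *Kl* and the lowest rows on the right are nearly white.

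Deviations from the dose mean were then compared with those of *Ttr* over the 8 brains. Each brain's values for all genes come from the same library and are scaled by the same library size. Pearson's r was 0.98 for *Slc4a5*, 0.97 for *Clic6*, 0.96 for *Aqp1*, 0.95 for *Folr1*, 0.92 for *Enpp2*, 0.90 for *Kcnj13* and 0.85 for *Otx2*. These 9 correlations were tested by exact permutation of libraries within each dose, with adjusted p-values from 0.0156 to 0.0491 for the 7 genes just named. Adjustment was over these 9 only. Each p-value asks only whether a gene moved with *Ttr*, and 457 of 12422 genes (3.68%) had an r over 0.8. The p-values alone thus do not set the members apart from those genes. Spearman's rho was 0.98 for *Slc4a5* and *Clic6* (exact permutation, adjusted p = 0.026 each), 0.95 for *Aqp1* (adjusted p = 0.0352), 0.90 for *Kcnj13* (adjusted p = 0.026) and 0.90 for *Folr1* (adjusted p = 0.0703). It was 0.88 for *Otx2* (exact permutation, adjusted p = 0.0703) and 0.74 for *Enpp2* (adjusted p = 0.0737). *Kl* had an r of 0.10 and a rho of -0.05, and *Prlr* an r of -0.16 and a rho of -0.02, with exact permutation adjusted p-values of 0.799 or more.

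When the 2 brains farthest from the median of *Ttr* were left out (0 ppm replicate 2 and 50 ppm replicate 4), r over the other 6 brains was 0.93 for *Clic6*, 0.92 for *Slc4a5*, 0.88 for *Otx2*, 0.83 for *Aqp1* and 0.78 for *Folr1*. It fell to 0.69 for *Kcnj13* and 0.62 for *Enpp2*, whose relation with *Ttr* therefore rested more on those brains. For *Kl* it was -0.65 and for *Prlr* -0.12. The 50 ppm replicate 1 brain was nearly as far from the median and was kept (*Ttr* deviation -0.66, beside 0.54 in 50 ppm replicate 4). Deviations were still taken from dose means over all brains, so the brains left out still entered these values. Across genes, 6 of the 7 other members with a mean of at least 100 counts had an r to *Ttr* over 0.8, as did 457 of 12422 genes (3.68%), and the median r over all these genes was -0.02.

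**Figure D4:**
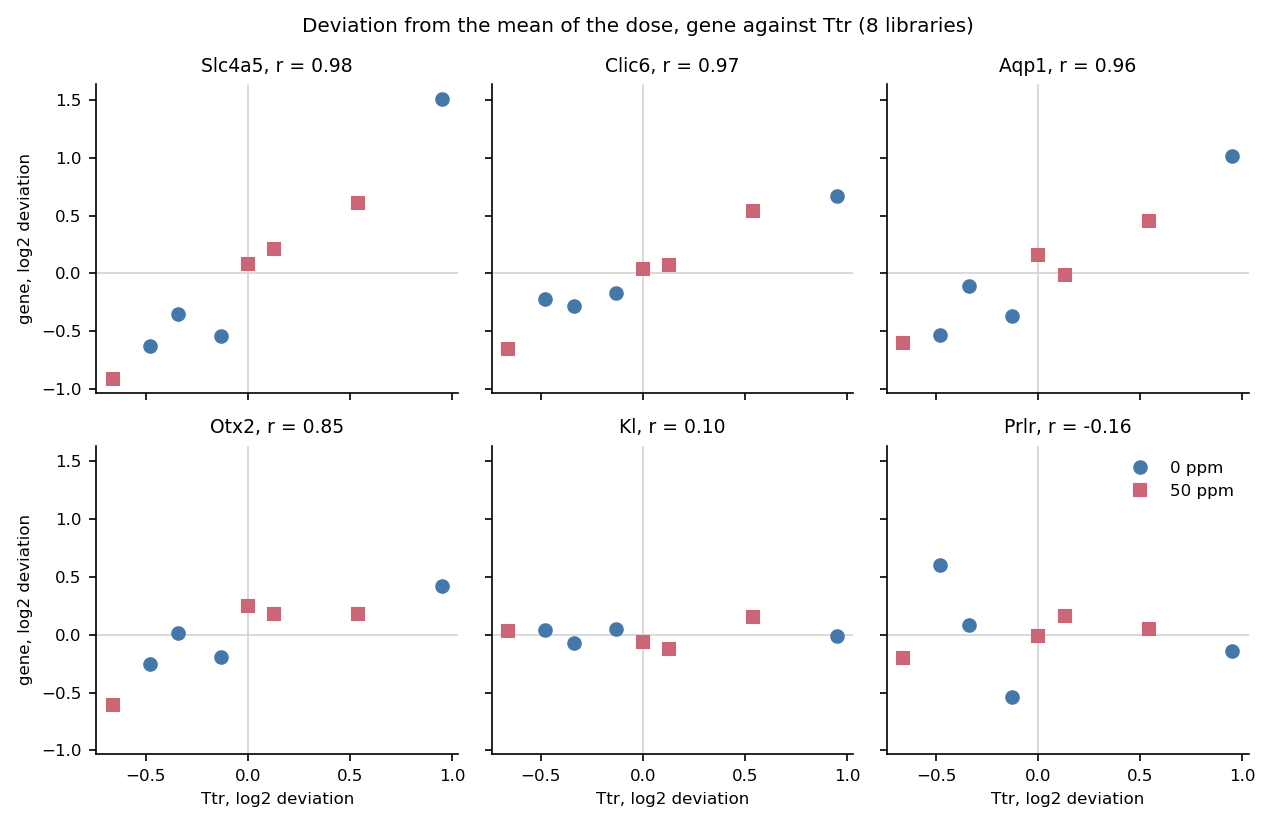
Deviation of log2 CPM from the mean of the same dose for 6 members (y axis) against that of *Ttr* (x axis), with 1 point per brain, circles for 0 ppm and squares for 50 ppm. The points of *Slc4a5*, *Clic6* and *Aqp1* rise together with *Ttr*, those of *Kl* stay near 0, and those of *Prlr* show no order.

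Among the 12423 genes ranked by r to *Ttr*, with *Ttr* itself first, *Slc4a5* stood at rank 4, *Clic6* at 6, *Aqp1* at 21, *Folr1* at 37, *Enpp2* at 72, *Otx2* at 262 and *Kl* at 5331. With the members left out, the 10 genes with the highest r were *Uvrag*, *Zcchc24*, *Eif2s3x*, *Zdhhc5*, *Mib1*, *Arcn1*, *Gorasp2*, *Dazap2*, *Eif5a2* and *March5*, with r from 0.97 to 0.99. They are in none of the marker lists, and they moved little: *Uvrag*, the first of them, ranged from 40.3 to 47.2 CPM over the 8 brains, where *Ttr* ranged from 325 to 1128 CPM. Only 0 to 5 of these 10 stayed among the first 10 when a library was left out. Requiring in addition a control range of at least 2 times, a choice made after the values were seen, left 19 of the 244 genes with such a range, *Ttr* included. Of these, 4 were members, 6 were on the list of other choroid plexus genes (*Wfikkn2*, *Cldn1*, *Tmem72*, *Car12*, *1500015O10Rik* and *Abca4*), and the other 9 were *Eomes*, *Nr1d1*, *Fam107a*, *Lgals3bp*, *Sgms2*, *Galnt15*, *Scube2*, *Lbp* and *Fxyd1*.

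Other genes known from choroid plexus epithelium gave the same picture between doses. Of 35 listed, 34 were found and 33 tested, and 0 had an adjusted p under 0.05. At an unadjusted p under 0.05 in edgeR's fit there was 1 gene of the 33, lower at 50 ppm, beside 3.75% of all genes tested. It was *Lmx1a*, a transcription factor of the roof plate, with a log2 fold change of -0.51 (SE 0.22). Fold changes were positive for 10 and negative for 23, with a median log2 fold change of -0.10. Among genes of the list with a mean of at least 1 CPM, the lowest log2 fold changes were those of *Tmem72* (-0.60), *Trpv4* (-0.54), *Lmx1a*, *Krt18* (-0.34) and *Prr32* (-0.30), and the highest those of *Slc13a4* (0.21), *Abca4* (0.11), *Trpm3* (0.10), *Htr2c* (0.09) and *Cab39l* (0.08). The groups did not overlap for 1 gene of the 33, beside 2.09% of all genes tested. It was *Msx1*, a transcription factor (4.81 to 5.74 CPM at 50 ppm and 5.81 to 7.37 CPM at 0 ppm).

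Of the 33, 20 were highest in 0 ppm replicate 2. The same held for 17.5% of all genes with a mean of at least 100 counts, a limit not set on the 33. *Tmem72*, a membrane protein gene, measured 8.98, 31.8, 7.12 and 8.79 CPM at 0 ppm against 5.54, 7.65, 9.56 and 14.7 CPM at 50 ppm. *Cldn1*, which encodes a tight junction protein, measured 7.61, 25.8, 9.54 and 8.98 CPM at 0 ppm against 6.31, 7.79, 13.1 and 15.2 CPM at 50 ppm. Both had the order of brains seen in *Slc4a5* at their highest and lowest points. Some genes of the list varied less, among them *Trpm3* (82.7 to 99.4 CPM), *Igfbp2* (114 to 145 CPM) and *Slc4a10* (82.5 to 103 CPM). Neurons or glia also express these. *Kcne2* varied less as well (4.42 to 6.58 CPM), and the reason was not tested. Of the 23 with a mean of at least 100 counts, 9 had an r to *Ttr* over 0.8, and their median r was 0.67.

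Genes that act with the members in cerebrospinal fluid were looked at in a list of 16, which holds lysophosphatidic acid receptors, retinol transport, FGF23 signalling and channels. Of 15 tested, 0 passed the adjusted threshold, and 1 had an unadjusted p under 0.05. This was *Aqp4*, the water channel of astrocytes and ependyma, at 82.2, 57.8, 117 and 85.9 CPM at 0 ppm against 146, 147, 112 and 156 CPM at 50 ppm. The log2 difference of 0.71 did not pass the adjusted threshold (edgeR, Benjamini-Hochberg adjusted p = 0.271). The brain with the most *Aqp1*, 0 ppm replicate 2, had the least *Aqp4*.

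Marker lists of other tissues were summed in each brain to show what moved with the members. The summed CPM of the 10 members was 674, 1391, 552 and 604 at 0 ppm and 455, 724, 672 and 954 at 50 ppm. Genes of the hindbrain (*Slc6a5* and *Hox* genes) summed to 0.341, 3.35, 45 and 54 CPM at 0 ppm against 157, 72.0, 43.5 and 62.6 CPM at 50 ppm, with 7 of 7 tested higher at an unadjusted p under 0.05 and 0 at the adjusted threshold. The brain with the highest member sum thus had a low hindbrain sum, the brain with the lowest member sum had the highest hindbrain sum, and 0 ppm replicate 1 had the least hindbrain signal with a middling member sum. The part of this difference in the members' values was not tested. Genes of midbrain and rostral territory summed to 284 to 462 CPM at 0 ppm, highest in replicate 2, and to 339 to 404 CPM at 50 ppm, with 1 of 8 higher and 2 lower at an unadjusted p under 0.05.

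Genes of the meninges, the membranes continuous with the stroma of the choroid plexus, summed to 920.1 to 1046 CPM at 0 ppm against 1121 to 1313 CPM at 50 ppm, and 4 of 11 tested had an unadjusted p under 0.05, all higher. Among these were *Ptgds* (log2 fold change 0.51, adjusted p = 0.30 in edgeR's test) and *Aldh1a2* (0.44, adjusted p = 0.298 in the same test). The paper, with DESeq2, counted both among its differing genes. The meningeal sum was highest in 50 ppm replicate 1, where the members were lowest, and the median r of its genes to *Ttr* was -0.36. Ependymal and cilia genes summed to 66.6 to 84.0 CPM and 70.7 to 93.6 CPM, with 0 of 11 at an unadjusted p under 0.05 and the lowest sum in 0 ppm replicate 2. Brain endothelium summed to 321 to 375 CPM and 329 to 393 CPM (0 of 10), and blood to 128 to 312 CPM and 101 to 404 CPM (0 of 8), in neither case highest in 0 ppm replicate 2.

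Genes of newly formed oligodendrocytes summed to 252 to 382 CPM at 0 ppm against 323 to 384 CPM at 50 ppm. The largest part of this sum was *Tcf7l2*, with means of 170.3 CPM at 0 ppm and 144 CPM at 50 ppm (log2 fold change -0.24). Of 10 tested, 6 had an unadjusted p under 0.05, all higher, and *Bcas1* passed the adjusted threshold (log2 fold change 0.97, adjusted p = 0.0375 in edgeR's test). How many genes pass depends on the tool: over all genes edgeR called 4 and DESeq2 18. The paper, with DESeq2, reported further genes of this list as higher. Tissues that share genes with the choroid plexus had low sums. Genes of the eye and pigment epithelium summed to 37.9 to 61.3 CPM and 39.1 to 41.5 CPM, most of it *Rlbp1*, a gene that glia also express, and *Rpe65* and *Rgr* had at most 3 reads in any brain; 2 of 12 were lower at an unadjusted p under 0.05. Pineal genes summed to 2.65 to 7.03 CPM over the 8 brains (2 of 5 lower). Pituitary genes summed to 3.27 to 5.26 CPM (1 of 6 higher). Liver genes, another source of *Ttr*, summed to 0.751 to 1.5 CPM (1 of 5 higher). *Crx* was counted in both the eye and the pineal list. It measured 2.56 CPM in 0 ppm replicate 1 and 0.246 to 0.93 CPM in the other brains. The pituitary gene was *Cga* (0 to 0.456 CPM) and the liver gene *Ahsg* (0.0351 to 0.285 CPM), so both rested on few reads. For comparison, 3.75% of the 23113 genes passed this unadjusted limit.

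**Figure D5:**
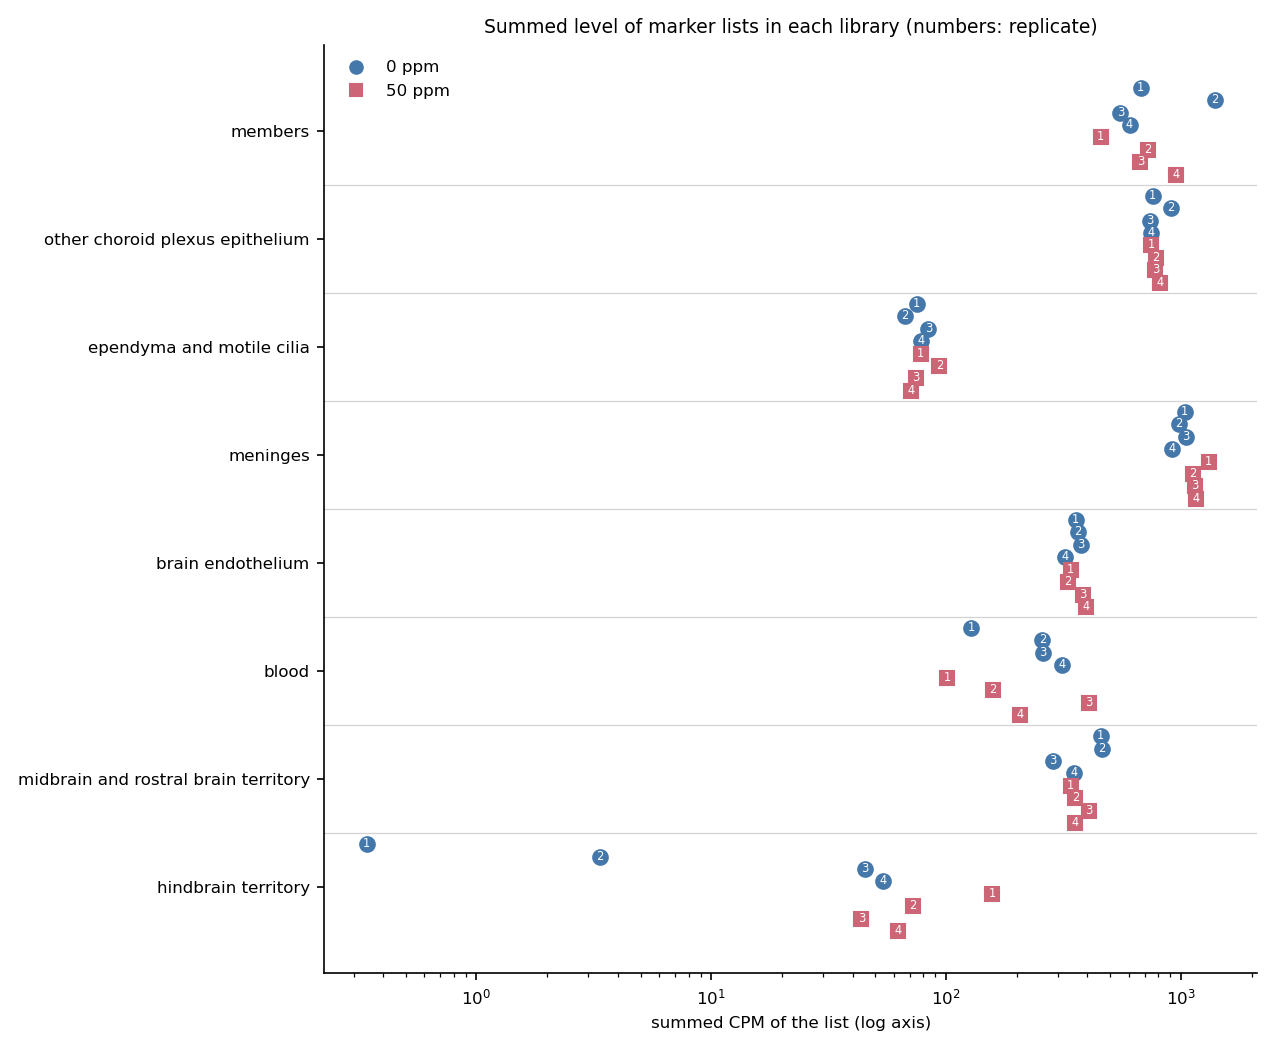
Summed CPM (log axis) of the 10 members and of 7 marker lists in each brain, with circles for 0 ppm, squares for 50 ppm and the replicate number in each symbol. The members span 455 to 1391 CPM, the other choroid plexus genes 737 to 903 CPM, and the hindbrain genes 0.341 to 157 CPM.

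Per kb of exon, the order of the members' levels over the 8 brains was *Ttr*, *Enpp2* (16.5 ± 3.90 CPM per kb, SD), *Aqp1* (6.21 ± 2.78), *Clic6* (4.46 ± 1.43), *Otx2* (4.0 ± 0.923), *Folr1* (2.87 ± 1.25), *Kcnj13* (2.60 ± 0.893), *Slc4a5* (1.11 ± 0.760), *Kl* (0.417 ± 0.0277) and *Prlr* (0.0504 ± 0.0157). Neighbours kept this order in 8 of 8 brains except for *Clic6* over *Otx2*, in 6 of 8, and *Folr1* over *Kcnj13*, in 5 of 8.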

How the data were processed

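Poly(A) RNA of whole brains from 8 newborn B × C females, 4 per maternal dose, was sequenced in single-end mode after directional library preparation. The authors trimmed initial bases, aligned reads with STAR to the C57BL/6J genome (GRCm38) and deposited raw read counts per gene from htseq-count; versions and the strand setting are not given in the sources used here. A table aligned to the CAST/EiJ genome was not used here because its identifiers could not be paired with the members.

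The members and gene lists were chosen with earlier results of these data known. Genes with a count of 0 in more than 5 of 8 libraries were left out. Doses were compared with edgeR 4.0.16 (TMM, glmQLFit and glmQLFTest, treatment as the only term; R 4.3.3), with Benjamini-Hochberg adjustment over 23113 genes, a threshold of 0.05 and intervals from that fit. Log2 CPM used a prior count of 2. Single members were tested by exact permutation over 70 labellings, and correlations over 576 labellings within doses. Lengths are merged exons of GENCODE (GRCm38). Of 160 listed symbols, 159 were found.

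Genes were named if they were members, were among the 5 lowest or 5 highest fold changes of other choroid plexus genes with at least 1 CPM, were abundant in or called from other lists, or were among the 10 most like *Ttr*. *Msx1*, *Igfbp2*, *Slc4a10*, *Cldn1*, *Kcne2*, *Aldh1a2*, the r limit of 0.8 and the genes with a 2-fold control range were chosen after values were seen. So was the median deviation without *Kl* and *Prlr*. Alternatives were DESeq2 1.42.0, its size factors, total counts, other filters, a robust fit, a prior count of 0.5 and each library left out in turn. The fit was tested on simulated counts. A listed gene is not reported here.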

Additional observations from a re-analysis of the deposited data

Results flagged for a closer look

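Within the groups of 4, 9 of 48 sets of values held a brain set apart by Dixon's criterion. Its gap to the nearest other brain was a large part of the whole range. Chance gives about 1 in 20 for normally distributed values, whereas these were CPM on a linear scale, so that rate is only a rough guide. At 0 ppm the brain set apart was replicate 2 each time. It stood at 1128 CPM for *Ttr* beside 418 to 531 CPM in the other 3 controls, at 139 CPM for *Enpp2* (76.8 to 82.4), at 12.9 CPM for *Folr1* (4.41 to 5.62), at 16.5 CPM for *Slc4a5* (3.69 to 4.49) and at 28.3 CPM for *Clic6* (14.7 to 15.9). The same brain stood at 1391 CPM for the sum of the 10 members, beside 552 to 674 CPM, and at 903 CPM for the sum of the other choroid plexus genes, beside 737 to 757 CPM. At 50 ppm, replicate 4 was high for *Enpp2* at 122 CPM (86.0 to 91.9 in the other 3), and replicate 1 was low for *Otx2* at 9.93 CPM (17.2 to 18.2). These genes move together, so the 9 sets are not independent of each other.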

How the results depend on the processing

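No member passed the adjusted threshold under any alternative, and the median log2 fold change over the members was -0.20 to -0.19 under the 6 alternatives of normalization, filter and tool. Over all genes, 4 were called; 52 were called with no filter, 2 with at least 10 counts in 4 libraries, 18 with DESeq2, and 2 to 20 when a library was left out. Of 140 fold changes of members under alternatives, 13 changed sign, all when a library was left out, as did 14 of 100 differences of mean log2 CPM. With a library left out, the number of members with an unadjusted p under 0.05 in edgeR's fit was 0 to 1. These were *Enpp2* without 0 ppm replicate 2 and *Prlr* without 0 ppm replicate 3. The number whose groups did not overlap was also 0 to 1, in the same fits and for *Prlr* without 50 ppm replicate 1. Groups of fewer brains are more easily apart, and the share of all genes apart in these fits was not counted. With a library left out, the median log2 fold change was -0.32 to 0.21. The log2 fold change then ranged from -0.44 to 0.19 for *Ttr*, -0.10 to 0.28 for *Enpp2*, -0.39 to 0.24 for *Folr1*, -0.45 to 0.19 for *Aqp1*, -0.18 to 0.42 for *Kcnj13*, -0.53 to 0.51 for *Slc4a5* and -0.38 to 0.09 for *Clic6*. The difference of mean log2 CPM ranged from -0.36 to 0.14 for *Ttr*, -0.05 to 0.27 for *Enpp2*, -0.31 to 0.20 for *Folr1*, -0.36 to 0.15 for *Aqp1*, -0.10 to 0.43 for *Kcnj13*, -0.30 to 0.42 for *Slc4a5* and -0.36 to 0.04 for *Clic6*. The median within-dose SD over the members was 0.37 to 0.53, and the median r to *Ttr* 0.86 to 0.96. The cause of these shifts was not tested beyond the library left out. No paired analysis was possible because the labels give the doses no shared replicate numbers. With 4 brains a dose, the interval for *Slc4a5* reached from 0.455 to 1.43 times the control level, and *Prlr* rested on 11 to 30 reads per library.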
